A study of Mus musculus with 12 samples.

Results

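The mouse genes whose symbols run from Zfp900 to Zfp999 were examined in RNA-seq libraries of dendritic cells. A gene was a member when its symbol was Zfp9 followed by exactly 2 further digits, which held for 65 of the 41709 genes counted. The libraries came from MHCII+ bone marrow-derived dendritic cells (BMDCs), grown from bone marrow with GM-CSF for 10 days. Marrow donors were CD18fl/fl mice, in which loxP sites flank exon 3 of the gene for the integrin chain CD18, or CD18CD11c cKO mice, which carry the same floxed alleles and a Cre recombinase driven by the CD11c promoter. The floxed allele, which both genotypes share, was made in an embryonic stem cell clone of C57BL/6N origin. Chimeras were crossed with B6 Albino and Flp deleter mice, and floxed mice with CD11c-Cre mice. The controls were bred to lack Cre. Whether the marrow donors were littermates is not given in the sources used here, and other differences in background were not tested. Cells of each genotype were left unstimulated or received 100 ng/mL LPS for 24 h. Each of these 4 groups comprised 3 libraries. The age of the mice is not given in the sources used here, and the labels do not say whether the 3 libraries of a group came from separate mice, so p-values measure only the spread between these libraries.

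Genes of this kind encode proteins with tandem C2H2 zinc fingers, each of which holds a zinc ion and reads a few bases of DNA. Most of those that lie in the large mouse clusters also carry a KRAB domain, which recruits the corepressor TRIM28 and, through it, the histone methyltransferase SETDB1 and heterochromatin proteins. KRAB zinc finger proteins are known for silencing transposable elements, and their genes multiplied by local duplication. Neighbours can therefore be so alike that a short read fits several of them. The functions of most members are not established. In the GENCODE annotation of GRCm39, the linker that joins adjacent fingers (threonine, glycine, glutamate, lysine, proline) occurred in the longest coding sequence of 63 of the 65 members, which is 96.9%, against 2.23% of 21770 protein-coding genes. The median was 7 linkers per member, with a range from 0 to 16. Other genes named Zfp and a number held the linker in 70.8% of 318 cases.

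The following coding sequences show how alike members on chromosomes 2 and 4 can be over the length of a read. They are 59 bases long, the length of the reads, are written 5′ to 3′ on the coding strand, and were taken from GRCm39 at coding exons of the GENCODE annotation. The same stretch occurred without a difference in Zfp965, Zfp966, Zfp967, Zfp968, Zfp969 and Zfp973, all in the cluster on chromosome 2. It is given here at chr2:175321338-175321396, on the plus strand, within Zfp965:
Zfp965 shared stretch: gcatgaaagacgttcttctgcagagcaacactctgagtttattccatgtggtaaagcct
A stretch further along the same exon split these genes into sets. Zfp965 (chr2:175321498-175321556, plus strand) and Zfp973 (chr2:176372035-176372093, plus strand) were identical, while Zfp968 (chr2:175223947-175224005, plus strand) differed from them at 4 bases, written in capitals:
Zfp965 and Zfp973: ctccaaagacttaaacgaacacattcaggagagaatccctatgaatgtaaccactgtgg
Zfp968: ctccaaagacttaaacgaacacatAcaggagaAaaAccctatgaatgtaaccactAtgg
Zfp966, Zfp967 and Zfp969 held the form of Zfp968. On chromosome 4, a stretch at chr4:146741835-146741893 (plus strand, Zfp993) was the same in Zfp991 and Zfp992:
Zfp993 shared stretch: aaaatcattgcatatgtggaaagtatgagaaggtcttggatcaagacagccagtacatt
In a further stretch of that exon, Zfp993 (chr4:146741940-146741998, plus strand) was compared with Zfp991 (chr4:147262887-147262945, plus strand), and 1 base differed, in capitals:
Zfp993: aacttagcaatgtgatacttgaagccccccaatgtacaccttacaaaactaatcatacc
Zfp991: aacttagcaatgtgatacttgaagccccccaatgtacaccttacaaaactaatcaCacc
Zfp992 held the form of Zfp991.

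The 12 libraries held between 29689149 and 34037178 total gene reads, and 3 reads, taken as the floor, corresponded to between 0.0881 and 0.101 CPM, the usual unit that divides a gene's reads by the library total. Libraries were made by PCR without molecular identifiers, so floors cover counting error only. Itgb2, which encodes CD18, was at 460, 529 and 478 CPM in unstimulated CD18fl/fl and at 113, 155 and 203 in unstimulated CD18CD11c cKO BMDCs. With LPS it was at 162, 151 and 308 against 90.5, 66.9 and 111. The labelled genotypes were therefore visible in each state without overlap. Of the dendritic cell markers, all 10 were detected, with summed levels between 13934 and 27397 CPM, although Cd209a was at under 1 CPM in both LPS-treated groups. The 9 neutrophil markers summed to between 11.1 and 1592 CPM in unstimulated CD18fl/fl libraries and to between 11.4 and 182 in unstimulated CD18CD11c cKO libraries. The 3 B cell markers ranged from 0.707 to 86.96 and from 0.433 to 88.9. The 4 markers of dividing cells ranged from 30.9 to 100.4 and from 54.5 to 205.6. The 7 macrophage markers separated the genotypes without overlap in both states, with sums from 1911 to 2425 CPM in CD18fl/fl against 1312 to 1885 in CD18CD11c cKO libraries before LPS and from 978 to 1229 against 332 to 708 after LPS. They were also lower with LPS in each genotype without overlap. The 4 T and NK cell markers summed to between 3.97 and 22.5 CPM before and between 0.147 and 1.11 after LPS in CD18fl/fl, and to between 0.804 and 19.7 against 0.469 to 2.37 in CD18CD11c cKO libraries. The part of these markers in the values of the members was not tested. In bulk samples, fewer cells that transcribe a gene and fewer transcripts per cell cannot be told apart. Replicate 3 of every group stood apart from replicates 1 and 2.

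Members were rare transcripts. Together they took 0.0487% of all gene reads. Of the 65 members, 48 had reads in each of the 12 libraries, 14 had reads in some of them, and Zfp957, Zfp997 and Zfp998 had no read in any. A mean of at least 10 reads per library was reached by 50 members and a mean of at least 100 by 32. On the scale of CPM per kilobase of exon, which allows genes of different length to be compared, the median member had a level of 1.08. The 8 highest members by this level were Zfp984 (22.005), Zfp993 (20.5), Zfp958 (17.9), Zfp991 (17.2), Zfp931 (10.1), Zfp992 (6.15), Zfp954 (5.58) and Zfp952 (5.51). Of these, 4 belonged to the chromosome 4 cluster. The levels count total gene reads, intron reads included. Those of Zfp993 (38.7% unique reads) and Zfp991 (45.7%) therefore depend on how shared reads were assigned.

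Of the members, 46 lay in 6 clusters, defined as at least 3 members whose starts follow each other within 1 Mb. The cluster on chromosome 4 held 16 members (145237329 to 147932823), that on chromosome 2 held 10 (175214229 to 177720269), and that on chromosome 17 held 10 (21787270 to 23086108). Smaller clusters of 4, 3 and 3 members were present on chromosomes 7, 8 and 13, and 19 members lay outside any cluster.

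Reads that fit several positions were concentrated in the clusters on chromosomes 2 and 4. Such reads are contained in the total gene reads of a gene and are left out of its unique gene reads. Over all 65 members, their share was 18.6% ± 3.30 (SD, n = 12 libraries), between 13.2% and 25.3%, whereas over all genes it was between 3.81% and 4.88%. In the clusters on chromosomes 2 and 4 together it lay between 24.6% and 41.4%, and in members elsewhere between 3.33% and 6.97%. Pooled over libraries, 34.7% of the reads in the chromosome 4 cluster and 27.1% in the chromosome 2 cluster had several positions, compared with 0.535% in the chromosome 17 cluster, although this cluster has as many members as that on chromosome 2. Other genes named Zfp and a number were at 2.47% to 3.14%.

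**Figure D1:**
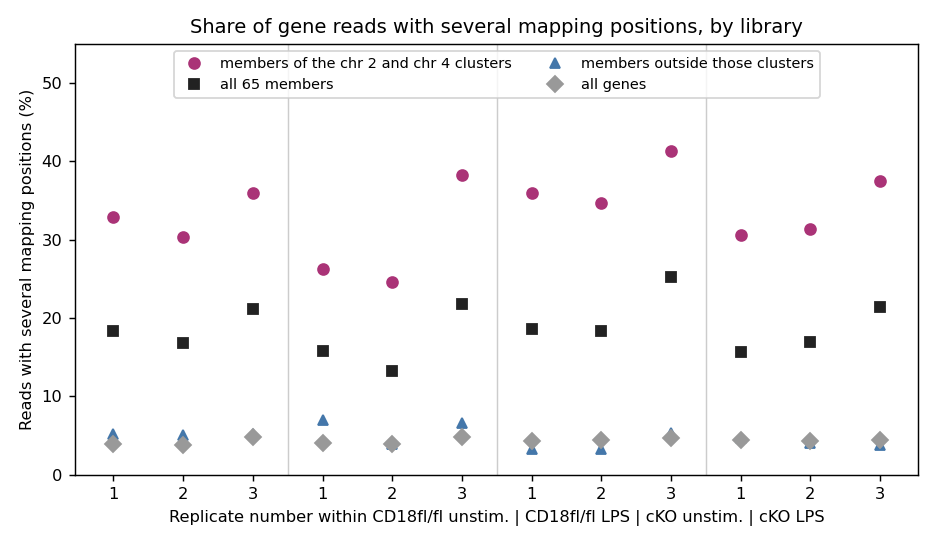
Share of total gene reads that are not unique gene reads (y axis, percent) in each of the 12 libraries (x axis, replicate numbers within the 4 groups), for members of the chromosome 2 and 4 clusters (circles), all members (squares), members elsewhere (triangles) and all genes (diamonds). The circles lie between 24.6% and 41.4% in all libraries, and the diamonds between 3.81% and 4.88%.

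The ranges of this share overlapped between the groups. For the chromosome 2 and 4 clusters it was 33.1% ± 2.85 (SD, n = 3) in unstimulated and 29.7% ± 7.50 in LPS-treated CD18fl/fl BMDCs, and 37.4% ± 3.53 in unstimulated and 33.1% ± 3.82 in LPS-treated CD18CD11c cKO BMDCs. In each group, replicate 3 had the highest share, between 36.0% and 41.4%. By replicate number, the unstimulated libraries were at 32.9%, 30.3% and 36.0% in CD18fl/fl and at 36.0%, 34.7% and 41.4% in CD18CD11c cKO BMDCs, so that the latter were higher in 3 of 3 pairs. With LPS the CD18CD11c cKO libraries were at 30.6%, 31.3% and 37.5%, lower than without LPS in 3 of 3 pairs. The LPS-treated CD18fl/fl libraries were at 26.2%, 24.6% and 38.3%, lower than without LPS in replicates 1 and 2 and higher in replicate 3. Between the LPS-treated genotypes, the CD18CD11c cKO libraries were higher in replicates 1 and 2 and lower in replicate 3.

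Among the 50 members with a mean of at least 10 reads, 28 had more than 95% unique reads, and 8 had fewer than 50%. The latter were Zfp965 (1.36% unique), Zfp981 (18.0%), Zfp967 (25.2%), Zfp968 (26.5%), Zfp993 (38.7%), Zfp991 (45.7%), Zfp935 (46.7%) and Zfp960 (48.0%). To see how far the sequence of the transcripts carries this, every 59-base stretch of a member's annotated transcripts was looked up in the transcripts of all other genes and elsewhere in the genome. In Zfp965, 95.6% of the stretches occurred elsewhere, and 82.8% of them in Zfp973. In Zfp993, 91.1% occurred elsewhere, with 89.0% in the predicted gene Gm13236. Zfp960 shared 76.8% with Zfp97, Zfp935 shared 49.0% with Gm49359, and Zfp984 shared 41.6% with Zfp268, none of which is a member. Across the 50 members, Spearman's rho between the share of such stretches and the share of reads with several positions was 0.89. This describes the members, which share libraries and sequence and are not independent. The annotation used here is not the one the reads were counted on, so the shares of stretches are approximate.

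**Figure D2:**
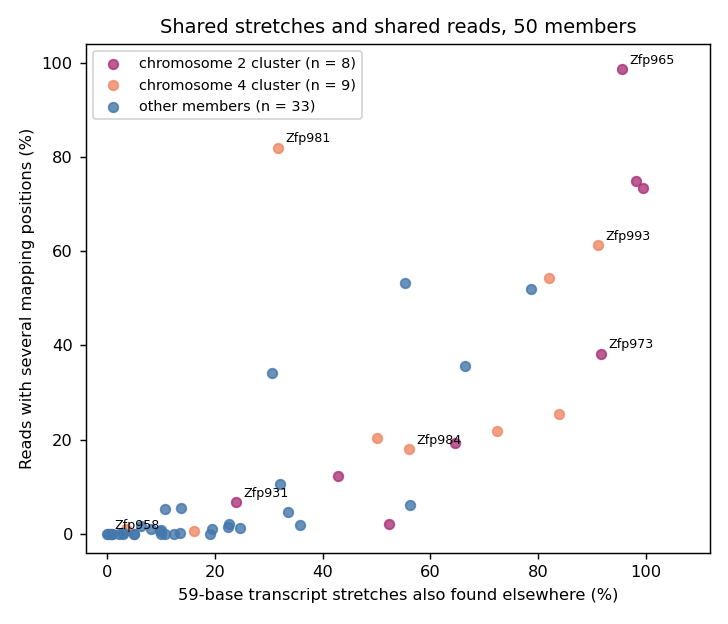
Reads with several mapping positions (y axis, percent, all 12 libraries pooled) against 59-base stretches of the transcripts that occur elsewhere (x axis, percent), with 1 point for each of 50 members coloured by cluster. Zfp965 sits at 95.6% and 98.6%, and Zfp981, at 31.7% and 82.0%, lies above the points with a similar share of stretches.

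Single members departed from this relation in both directions. In Zfp973, 91.7% of the stretches were found elsewhere but 38.2% of the reads fitted several positions. For Zfp992 these shares were 72.3% and 21.8%, and for Zfp932 56.2% and 6.12%. Zfp981 departed the other way, with 82.0% of its reads fitting several positions but 31.7% of its stretches found elsewhere. Of the reads of Zfp981, 86.1% lay in introns. Per library, between 6.46% and 14.3% of the reads of members lay in introns, against 1.91% to 4.54% of the reads of all genes. The median over the 50 members was 6.52%, and 4 of them (Zfp981, Zfp972, Zfp973 and Zfp976, named after their values were seen) had more than 50%.

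LPS treatment was compared with no stimulation in each genotype, to see whether these genes respond to activation of the cells. Levels by library are from here on given as CPM after TMM scaling, which sets the bulk of genes level between libraries. The LPS-treated libraries held more reads of members than the unstimulated libraries of the same genotype. Summed over members, they amounted to 351, 299 and 322 CPM before LPS and 646, 690 and 394 after LPS in CD18fl/fl BMDCs, and to 470, 411 and 376 against 807, 801 and 519 in CD18CD11c cKO BMDCs. The groups did not overlap in either genotype, and replicate 3 was the lowest library of both LPS-treated groups. Scaling by library size alone gave 423, 376 and 406 against 626, 607 and 455 in CD18fl/fl and 442, 389 and 402 against 638, 598 and 487 in CD18CD11c cKO BMDCs, again without overlap.

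In CD18fl/fl BMDCs, 2 of 50 members tested, Zfp944 and Zfp949, rose with LPS at an adjusted p under 0.05 (edgeR quasi-likelihood test, Benjamini-Hochberg adjustment over all genes tested), and 0 fell. For comparison, 2.06% of all 12744 genes tested rose and 233 fell. With the replicate number as a block, 6 of 50 rose and 0 fell, beside 6.33% of all genes that rose and 820 of 12744 that fell. These were Zfp943, Zfp944, Zfp948, Zfp949, Zfp983 and Zfp993, of which Zfp943, Zfp944, Zfp948 and Zfp983 lie in the chromosome 17 cluster, where reads are nearly all unique. The median log2 fold change of the 50 members was 0.59 and 40 of them were above 0, against a median of -0.02 and 6276 of 12744 for all genes. The count without the block rested on single libraries. It was 12 without replicate 3 of the LPS-treated group, 1 without replicate 3 of the unstimulated group, and 0 without replicate 1 or 2 of either group. With replicates 1 and 2 alone, 19 of 50 members rose and 1 fell, which is 40% called, beside 47.5% of all 12924 genes tested (3000 rose and 3140 fell). Scaling by library size moved the median of all genes to -0.32 and that of members to 0.25.

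In CD18CD11c cKO BMDCs, 1 of 52 members, Zfp958, rose with LPS without the block, beside 2.23% of 12687 genes. With the block, 10 of 52 rose (19.2%) and 0 fell, beside 10.2% of all genes that rose and 1260 of 12687 that fell. The 6 with the smallest p were Zfp958, Zfp943, Zfp983, Zfp944, Zfp984 and Zfp945, and the others were Zfp931, Zfp992, Zfp993 and Zfp951, the last of which was named after its values were seen. The median log2 fold change was 0.47 with 38 of 52 members above 0, against -0.01 and 6232 of 12687 genes. The 1 call without the block was lost without replicate 1 or 2 of either group or replicate 3 of the unstimulated group, and there were 2 calls without replicate 3 of the LPS-treated group. With replicates 1 and 2 alone, 9 of 52 members were called (17.3%), beside 15.9% of all genes. Scaling by library size moved the median of all genes to -0.23 and that of members to 0.26.

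Zfp949, a gene outside the clusters, was at 8.71, 7.92 and 8.55 CPM in unstimulated CD18fl/fl BMDCs and at 25.2, 30.9 and 20.8 after LPS. All treated libraries lay above all untreated ones. The log2 fold change was 1.61 ± 0.24 (SE, n = 3 per group, edgeR adjusted p = 0.0224). In CD18CD11c cKO BMDCs it was at 14.5, 12.005 and 11.2 without and 21.2, 17.9 and 21.5 with LPS, and the groups did not overlap there either. The log2 fold change of 0.64 ± 0.24 did not pass the test (edgeR adjusted p = 0.188, and 0.0755 with the block). The difference between the genotypes in this response was -0.93 ± 0.30 on the log2 scale and did not pass the interaction test (edgeR adjusted p = 1.00).

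Zfp944, in the chromosome 17 cluster, was at 7.57, 5.42 and 6.65 CPM before LPS and 15.96, 22.5 and 15.1 after LPS in CD18fl/fl BMDCs (log2 fold change 1.45 ± 0.28, edgeR adjusted p = 0.0431). In CD18CD11c cKO BMDCs the values were 11.5, 12.2 and 10.3 without and 28.9, 21.9 and 20.7 with LPS, with a log2 fold change of 1.02 ± 0.24 (edgeR adjusted p = 0.064, and 0.0166 with the block). In both genotypes the lowest treated library lay above the highest untreated one. Of its reads, 98.4% were unique.

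Zfp958, on chromosome 8 and outside the clusters, had the largest LPS change among the members called in CD18CD11c cKO BMDCs. There it was at 31.5, 27.9 and 24.8 CPM without and 114, 115 and 47.2 with LPS (log2 fold change 1.65 ± 0.35, edgeR adjusted p = 0.0486, and 0.00692 with the block). In CD18fl/fl BMDCs it was at 18.0, 13.4 and 19.2 without and 57.3, 69.5 and 23.0 with LPS. The change of 1.57 ± 0.42 did not pass the test there (edgeR adjusted p = 0.087, and 0.0723 with the block), although the groups did not overlap. Every one of its 15859 reads was unique. In both genotypes the LPS-treated replicate 3 reached less than the other 2 treated libraries.

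Replicate 3 was also the lowest treated library for Zfp943, Zfp945, Zfp983 and Zfp984. Zfp984, the most abundant member per length, rose to 140 and 126 CPM in LPS-treated CD18fl/fl replicates 1 and 2 and was at 37.6 in replicate 3, against 48.0, 41.9 and 41.4 without LPS, so that the groups overlapped. In CD18CD11c cKO BMDCs it was at 57.0, 36.4 and 30.2 without and 118, 83.1 and 42.7 with LPS. Each treated library lay above the untreated library of its own number, and the change of 0.87 ± 0.19 on the log2 scale passed the test with the block (edgeR adjusted p = 0.0228) but not without it (adjusted p = 0.243). In LPS-treated libraries, Zfp951 was at 21.7, 18.5 and 2.08 in CD18fl/fl and at 20.1, 17.7 and 3.75 in CD18CD11c cKO BMDCs, against untreated values between 2.83 and 7.94.

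The order was not the same in all members. Zfp948 was highest in replicate 3 of every group, with 1.47, 2.51 and 5.85 CPM before LPS and 6.29, 9.37 and 11.2 after LPS in CD18fl/fl BMDCs. Its change of 1.64 ± 0.35 passed the test with the block (edgeR adjusted p = 0.036) and not without it (adjusted p = 0.172). Zfp993 was at 13.4, 10.1 and 19.6 CPM before LPS and 27.6, 28.004 and 30.8 after LPS in CD18fl/fl BMDCs, and at 17.8, 14.7 and 30.9 against 35.3, 54.1 and 43.0 in CD18CD11c cKO BMDCs, without overlap in either genotype. With the block, its log2 fold changes were 1.06 ± 0.24 (edgeR adjusted p = 0.0424) and 1.06 ± 0.27 (adjusted p = 0.036). In unique reads they were 0.93 ± 0.31 (adjusted p = 0.0951) and 0.94 ± 0.28 (adjusted p = 0.0572) in the same fit, so neither call was made on unique reads. It was the member whose LPS call differed between total and unique reads in each genotype.

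Among the other abundant members, Zfp991 was at 41.3, 34.5 and 43.3 CPM before LPS and at 45.1, 49.2 and 51.5 after LPS in CD18fl/fl BMDCs. The CD18CD11c cKO libraries were at 50.6, 44.3 and 52.5 against 54.6, 79.6 and 61.7. The groups did not overlap in either genotype, but Zfp991 was called in no comparison, with or without the block. Zfp992 was at 17.1, 11.8 and 21.5 against 33.9, 34.5 and 25.1 in CD18fl/fl and at 21.7, 26.5 and 29.3 against 36.7, 50.5 and 40.1 in CD18CD11c cKO BMDCs. Its change passed the test with the block in the latter (0.67 ± 0.18, edgeR adjusted p = 0.0437), and so did its difference between unstimulated genotypes from total reads (0.71 ± 0.20, adjusted p = 0.044). Zfp952 and Zfp954, all of whose reads were unique, and Zfp935 were called in no comparison, with or without the block. Zfp935 reached 25.8 and 20.01 CPM in LPS-treated CD18fl/fl replicates 1 and 2 and 8.82 in replicate 3, against 8.23 to 9.88 before LPS.

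**Figure D3:**
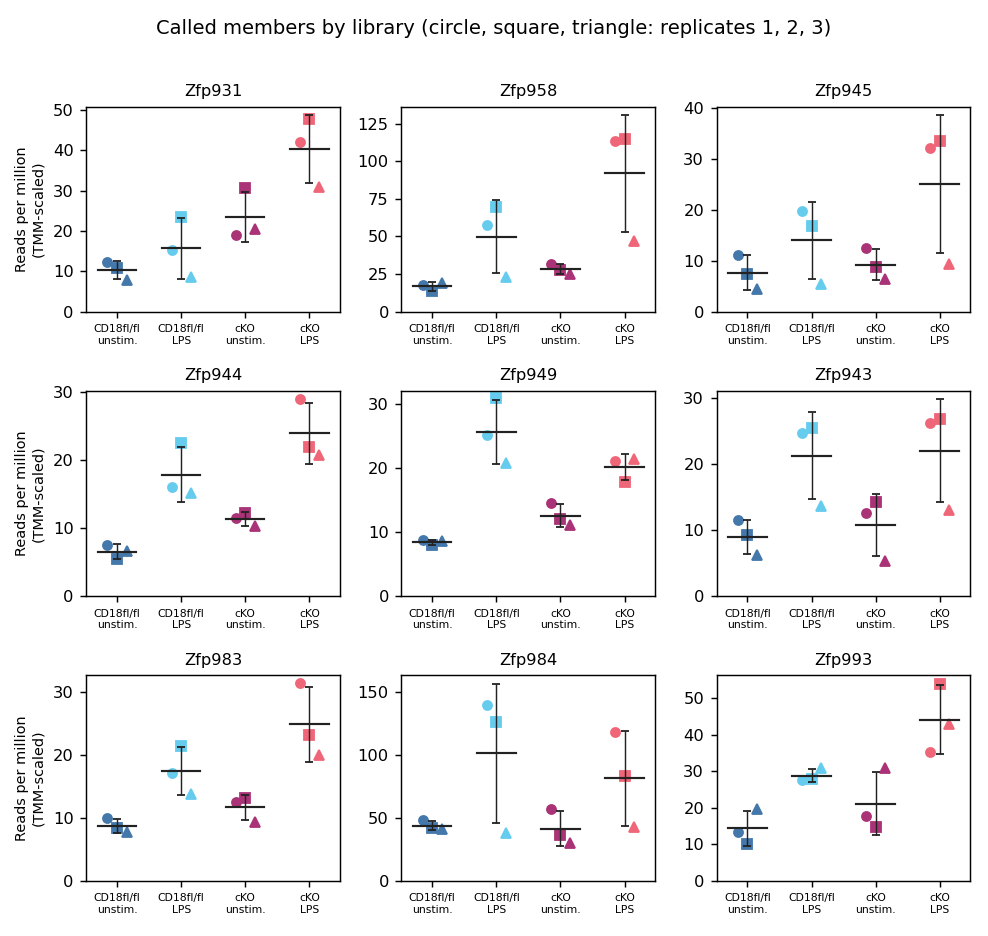
Level in CPM after TMM scaling (reads relative to the scaled library total) (y axes, from 0) in each library for 9 members called with LPS or between genotypes, by group (x axes), with replicates 1, 2 and 3 as circle, square and triangle and the mean ± SD (n = 3) in black. In LPS-treated CD18fl/fl BMDCs, the triangle of Zfp958 is at 23.0 while the other symbols are at 57.3 and 69.5.

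Genotypes were compared within each state, to see whether loss of CD18 alters these genes. Without the block, 0 of 52 members passed the test in unstimulated BMDCs, as did 0.0% of all 12876 genes. At an unadjusted p under 0.05 there were 9 members (17.3%, against 16.8% of all genes), and DESeq2 called 5, Zfp931, Zfp938, Zfp944, Zfp958 and Zfp965. With the block, 9 of 52 (17.3%) were higher in CD18CD11c cKO BMDCs and 0 were lower, beside 12.1% of all genes that were higher and 1051 of 12876 that were lower. These were Zfp931, Zfp938, Zfp944, Zfp958, Zfp965, Zfp969, Zfp992, Zfp993 and Zfp995. Of them, Zfp969 entered the test only through its reads in the CD18CD11c cKO libraries, so its call gives no support for a difference. Adding an offset for exon length to the block kept Zfp931, Zfp958 and Zfp992 and added Zfp949, for 4 calls, and restricting the comparison to replicates 1 and 2 gave 3 (5.77%, beside 10.6% of all genes).

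The median log2 fold change between the genotypes was 0.45 for the 52 members, 42 of which were above 0, against -0.05 for all genes. This direction depended on the scaling, since library size alone moved the median of all genes to -0.44 and that of members to 0.04, with 28 members above 0. Values are therefore relative to the bulk of genes. For the 255 other tested genes named Zfp and a number, the median was -0.18, with 94 above 0. With the block 1 of them was higher and 14 were lower. The difference between both sets was not tested.

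In LPS-treated BMDCs, 0 of 50 members passed the test without the block, as did 0.0% of 12441 genes. There were 3 at an unadjusted p under 0.05 (6%, against 9.74% of all genes), and DESeq2 called 0. With the block, 4 of 50 were higher in CD18CD11c cKO BMDCs (Zfp931, Zfp945, Zfp958 and Zfp981) and 0 lower, beside 6.98% of all genes that were higher and 393 of 12441 that were lower. Replicates 1 and 2 alone gave 1 call (1.92%, beside 4.22% of all genes). The median was 0.20 with 33 of 50 members above 0, against -0.11 for all genes, and with library size alone it was -0.05.

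Zfp931, at the distal end of the chromosome 2 cluster, had the smallest p of all members in both states with the block, and without LPS also without it. It was at 12.3, 10.7 and 7.91 CPM in unstimulated CD18fl/fl and at 19.1, 30.6 and 20.6 in unstimulated CD18CD11c cKO BMDCs. With LPS it was at 15.2, 23.5 and 8.51 against 42.1, 47.7 and 31.0. The genotypes did not overlap in either state. The log2 fold changes were 1.24 ± 0.29 and 1.33 ± 0.39 without the block (edgeR adjusted p = 0.136 and 0.402) and 1.23 ± 0.22 and 1.42 ± 0.20 with it (adjusted p = 0.0103 and 0.0104). Since 93.3% of its reads were unique, unique reads gave nearly the same values, 1.22 ± 0.23 and 1.44 ± 0.20 with the block (edgeR adjusted p = 0.0111 and 0.00825).

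Zfp958, whose levels are given above, was higher in CD18CD11c cKO BMDCs in every same-numbered pair of both states. The log2 fold change was 0.80 ± 0.18 without and 0.89 ± 0.15 with LPS when the block was used (edgeR adjusted p = 0.0207 and 0.0169), and 0.79 ± 0.22 and 0.85 ± 0.49 without it (adjusted p = 0.168 and 0.638). Zfp945, in the chromosome 17 cluster, was at 19.8, 16.8 and 5.39 CPM in LPS-treated CD18fl/fl and 32.3, 33.5 and 9.42 in LPS-treated CD18CD11c cKO BMDCs. Its groups overlapped, but each pair differed in the same direction, and the change of 0.81 ± 0.16 passed only with the block (edgeR adjusted p = 0.0267). Zfp938 was at 3.44, 3.39 and 5.16 against 9.08, 8.80 and 7.37 in unstimulated BMDCs, without overlap (1.15 ± 0.29 with the block, edgeR adjusted p = 0.0299). Zfp995 was at 8.02, 6.50 and 3.63 against 15.8, 10.8 and 5.90, with overlap but the same order in each pair (0.86 ± 0.22 with the block, edgeR adjusted p = 0.0308).

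For other members the comparison between genotypes rested on shared reads. Zfp965 was counted with 119, 101 and 106 reads in unstimulated CD18fl/fl and with 187, 147 and 195 in unstimulated CD18CD11c cKO libraries, a log2 fold change of 1.04 ± 0.29 with the block (edgeR adjusted p = 0.0426). Of these reads, 0, 0 and 4 in CD18fl/fl and 2, 1 and 0 in CD18CD11c cKO libraries were unique, so that unique reads could not test it. Zfp969 had 3, 0 and 0 reads in unstimulated CD18fl/fl and 25, 25 and 23 in unstimulated CD18CD11c cKO libraries, and passed the test with the block (edgeR adjusted p = 0.0449). It entered the test only through its reads in the CD18CD11c cKO libraries, so it could only be found higher there. With LPS it had 4, 12 and 0 against 11, 0 and 1 reads. Not 1 of its reads in any of the 12 libraries was unique, and all of its 59-base stretches occur in Zfp968. Zfp968 itself was counted with 0, 45 and 0 reads in unstimulated CD18fl/fl and 37, 0 and 59 in unstimulated CD18CD11c cKO libraries, so libraries of 1 group ranged from 0 to 59 reads.

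Zfp981, which had passed the test between genotypes after LPS with the block (2.70 ± 0.56, edgeR adjusted p = 0.0285), had 12, 13 and 21 total reads in LPS-treated CD18fl/fl and 84, 51 and 116 in LPS-treated CD18CD11c cKO libraries. In introns lay 12, 12 and 16 against 67, 47 and 102 of them. Its unique reads numbered 0, 1 and 5 against 17, 5 and 16 and were too few to enter the test. Most of the reads in either group were thus intron reads that fit several places. Without LPS, its groups overlapped (49, 59 and 40 against 99, 11 and 101 reads).

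Reads were then summed over genes on the same chromosome that share at least 20% of a member's stretches. Each group of copies thus has 1 value, which does not depend on how reads were divided within the group. Reads that also fit places outside the group still depend on how they were assigned. The 12 genes around Zfp973 on chromosome 2, of which 8 were members, together had 1184, 1130 and 1104 reads in unstimulated CD18fl/fl and 1530, 1218 and 1425 in unstimulated CD18CD11c cKO libraries. The log2 fold change of the sum was 0.64 ± 0.20 (edgeR adjusted p = 0.201) and 0.63 ± 0.14 with the block (adjusted p = 0.0198). After LPS it was 0.49 ± 0.19 with the block (adjusted p = 0.145). The sum of Zfp991, Zfp992, Zfp993 and Gm13236 differed by 0.51 ± 0.14 in unstimulated BMDCs with the block (edgeR adjusted p = 0.0407), and by 0.50 ± 0.22 without it (adjusted p = 0.315). Its LPS changes of 0.64 ± 0.23 and 0.60 ± 0.20 did not pass the test (edgeR adjusted p = 0.112 and 0.0742 with the block). Zfp984 with Zfp268 rose by 0.83 ± 0.19 with LPS in CD18CD11c cKO BMDCs (edgeR adjusted p = 0.0232 with the block, and 0.204 without it). There, Zfp960 with Zfp97 rose by 1.07 ± 0.30 (adjusted p = 0.0458 with the block, and 0.431 without it). The sum of Zfp960 and Zfp97 was 582, 269 and 134 reads without and 1630, 523 and 138 with LPS. Zfp960 itself was at 3.10, 0.800 and 1.47 CPM without and 7.41, 3.55 and 0.0324 with LPS, so it was lower with LPS in replicate 3.

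For most members, total and unique reads gave nearly the same fold change. In unstimulated BMDCs without the block, 48 members could be tested with both, and the median absolute difference between both log2 fold changes of the genotype comparison was 0.02. Since 28 of the 48 had over 95% unique reads, their values could hardly differ, and the median over the other 20 was 0.10. The sign differed between total and unique reads for 3 of the 48 members, and for 4 with the block. In the other comparisons it differed for at most 2. The largest difference between both log2 fold changes in unstimulated BMDCs was 0.65, for Zfp973. For the remaining comparisons the largest difference lay between 0.42 and 0.56 without the block. With the block it lay between 0.39 and 0.68, the latter for Zfp968 with LPS in CD18CD11c cKO BMDCs. Without the block, 0 calls differed between total and unique reads in any of the 4 comparisons. With the block, the call differed for Zfp993 in both LPS comparisons and for Zfp992, Zfp993 and Zfp932 between the genotypes without LPS. Zfp932, which together with its neighbour Gm15446 is known to bind endogenous retroviral sequences, passed with unique reads (1.00 ± 0.27, edgeR adjusted p = 0.0349) but not with total reads (0.90 ± 0.27, adjusted p = 0.0525).

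**Figure D4:**
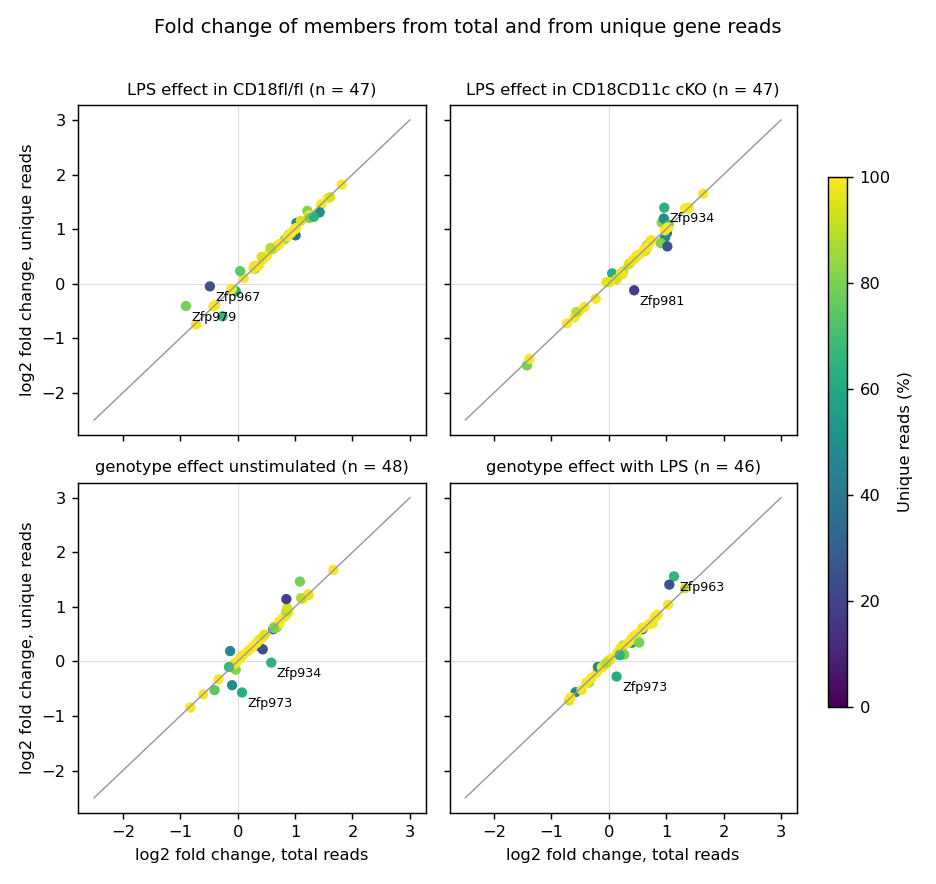
Log2 fold change of each member from total (x axes) and unique gene reads (y axes) in the 4 comparisons, coloured by the percentage of unique reads, with the line of equality in grey. In unstimulated BMDCs, Zfp973 lies at 0.08 and -0.57 between the genotypes, farther from the line than the other members.

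Zfp973 was the exception in how its reads were composed. Its total reads were 409, 410 and 428 in unstimulated CD18fl/fl and 381, 294 and 353 in unstimulated CD18CD11c cKO libraries, and after scaling the genotypes overlapped (11.3, 10.3 and 11.4 against 13.6, 9.80 and 10.2 CPM). The log2 fold change was 0.08 ± 0.22 from total reads (edgeR adjusted p = 0.898) and -0.57 ± 0.27 from unique reads (adjusted p = 0.337), or -0.58 ± 0.26 with the block (adjusted p = 0.139). Over the 12 libraries, 2560 of its unique reads lay in introns and 78 in exons. The value from unique reads is thus nearly one of intron reads alone, whereas total reads also hold its exon reads. The share of its reads with several positions was 30.8%, 24.1% and 21.7% before LPS and 33.3%, 41.4% and 21.5% after LPS in CD18fl/fl libraries. In CD18CD11c cKO libraries it was 54.6%, 44.2% and 58.6% without and 47.0%, 44.2% and 54.1% with LPS. Thus the 6 libraries of each genotype did not overlap.

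Of 16 members with at least 10 reads in every library and a share between 5% and 95%, Zfp973 was the 1 whose share did not overlap between the genotypes, beside 0.593% of 1012 genes under the same rule. Between LPS-treated and unstimulated libraries, 0 of 16 members had shares that did not overlap, beside 1.48% of the genes. These counts carry no test.

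The share in Zfp973 moved with where its reads lay. Intron reads numbered 263, 323 and 349 in unstimulated CD18fl/fl and 191, 173 and 132 in unstimulated CD18CD11c cKO libraries, and 163, 167 and 414 against 194, 132 and 153 after LPS. Exon reads numbered 146, 87 and 79 against 190, 121 and 221 without LPS, and 86, 125 and 111 against 157, 117 and 178 with LPS. Nearly all intron reads were unique (259 of 263 in the CD18fl/fl replicate 1, for example), while of the 146 exon reads of that library 24 were. Per library, between 57.2% and 81.5% of its reads lay in introns in CD18fl/fl and between 37.4% and 58.8% in CD18CD11c cKO BMDCs. The part of intron reads in the difference of shares was not tested.

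**Figure D5:**
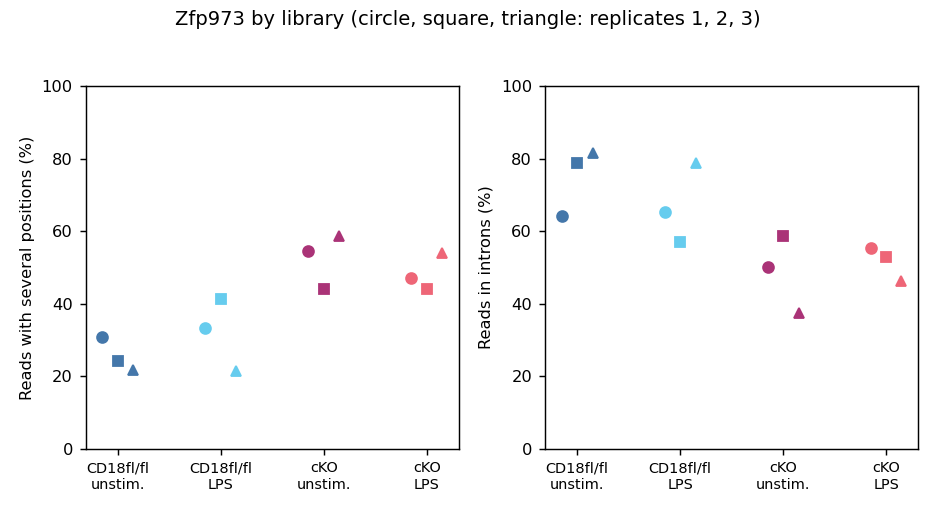
Reads of Zfp973 with several mapping positions (left panel, y axis in percent) and reads of Zfp973 in introns (right panel, y axis in percent) in each library by group (x axes), with replicates 1, 2 and 3 as circle, square and triangle. On the left, CD18fl/fl libraries lie between 21.5% and 41.4% and CD18CD11c cKO libraries between 44.2% and 58.6%.

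The fold changes were also listed by cluster. Between genotypes without LPS, all 10 members of the chromosome 2 cluster were above 0 with a median log2 fold change of 0.94. However, 8 of them belong to the group of copies summed above and share reads, and 3 passed the test with the block (Zfp931, Zfp965 and Zfp969). Of these, Zfp969 could only be found higher, as stated above. In the chromosome 17 cluster, where reads are nearly all unique, 8 of 10 were above 0 with a median of 0.31, and 2 passed with the block (Zfp944 and Zfp995). On chromosome 4, 9 of 16 members could be tested, with a median of 0.65 and 2 calls with the block (Zfp992 and Zfp993). The members outside clusters had a median of 0.38 without LPS and -0.05 with LPS. For LPS, the members of the chromosome 17 cluster had medians of 0.57 in CD18fl/fl and 0.83 in CD18CD11c cKO BMDCs. With the block, 4 of 10 were called in each genotype.

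The interaction of genotype and LPS was tested on all 12 libraries. For 53 members, 0 passed the edgeR test without and with the block, as did 0.0% of 13752 genes without and 0.0% with it. At an unadjusted p under 0.05 there was 1 member without the block (1.89%, against 0.705% of all genes) and there were 3 with it (5.66%, against 1.98%), and DESeq2 called 0.

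The partners through which KRAB zinc finger proteins act were given as a list of 31 genes, all of which were tested. With LPS in CD18fl/fl BMDCs, 1 of 31 passed the test without the block (3.23%, beside 3.89% of all genes). This was Resf1, a partner of SETDB1 in silencing of retroviral elements, which rose from 20.5, 21.99 and 24.5 to 43.4, 43.0 and 59.0 CPM without overlap (log2 fold change 1.12 ± 0.23, edgeR adjusted p = 0.0481). In CD18CD11c cKO BMDCs it was at 14.0, 19.2 and 20.4 without and 32.9, 35.6 and 51.1 with LPS (1.10 ± 0.20 with the block, edgeR adjusted p = 0.0112). With the block, 1 of 31 rose and 1 fell in each genotype (6.45%, beside 12.8% of all genes in CD18fl/fl and 20.2% in CD18CD11c cKO BMDCs), and those that fell were Chd3, a helicase of the NuRD complex (fell by 1.38 ± 0.33 in CD18fl/fl, edgeR adjusted p = 0.0453), and Suv39h1, a histone methyltransferase (fell by 0.82 ± 0.20 in CD18CD11c cKO, adjusted p = 0.0302).

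Between genotypes, 0 of the 31 partners passed without the block in either state, 3 without LPS and 2 with LPS had an unadjusted p under 0.05 (9.68% and 6.45%, against 16.8% and 9.74% of all genes), and DESeq2 called 1 (Chd4) without and 0 with LPS. With the block, 2 were higher in unstimulated CD18CD11c cKO BMDCs, the deacetylase gene Hdac1 (0.61 ± 0.13, edgeR adjusted p = 0.0201) and the SUMO gene Sumo2 (0.63 ± 0.13, adjusted p = 0.0165). Lower were 5, namely Chd4, Chd3, Atf7ip, Trim24 and Daxx, with log2 fold changes between -0.83 and -0.58. The 7 called were 22.6% of the list, beside 20.2% of all genes called in this fit. After LPS, 1 of 31 was higher with the block, Hdac1 (0.54 ± 0.14, edgeR adjusted p = 0.0493), which is 3.23%, beside 10.1% of all genes called. Trim28, the corepressor itself, was at 55.05, 73.1 and 47.8 CPM in unstimulated CD18fl/fl and at 32.7, 38.9 and 47.4 in CD18CD11c cKO BMDCs, without overlap, and the difference of -0.50 ± 0.20 did not pass the test (edgeR adjusted p = 0.116 with the block). Setdb1 was at 18.6, 22.6 and 20.4 against 10.2, 11.9 and 19.4, with overlap (-0.56 ± 0.22, edgeR adjusted p = 0.105 with the block).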

How the data were processed

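Poly(A) RNA of 12 mouse BMDC samples was sequenced with single-end reads of 59 bases. The deposited tables hold counts of total, unique, exon and intron gene reads per gene, which the authors made in CLC Genomics Workbench with default settings. The study's methods name GRCm39, to which the coordinates in the tables belong, while the submitters' processing notes name GRCm38. The annotation release and the treatment of reads with several positions are not given in the sources used here. The kit is not stated to keep strand, so reads of overlapping genes on opposite strands cannot be told apart.

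Members and gene lists were chosen with earlier results of these data known. Total gene reads were tested with the quasi-likelihood test of edgeR 4.0.16 in R 4.3.3 (TMM scaling, filterByExpr with a minimum count of 10, Benjamini-Hochberg adjustment over all genes tested, threshold 0.05). Each comparison used its 6 libraries, and the interaction used 12. Scripts were tested on simulated data. Named members were those called with or without the block (up to 6 per direction), the 8 highest per kilobase, those with under 50% unique reads and a mean of at least 10 reads, and those whose call or log2 fold change (by at least 1) differed between total and unique reads. Alternatives were unique reads, the block, an exon length offset, DESeq2 1.42.0, other scalings and filters, and leaving out libraries. Sums over copies and replicates 1 and 2 alone were added after seeing the data.

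Groups share replicate numbers. Deviations from the group means correlated between same-numbered samples of the groups compared, with coefficients from 0.265 to 0.524 (LPS, CD18fl/fl), 0.312 to 0.565 (LPS, CD18CD11c cKO), 0.387 to 0.716 (genotype, unstimulated) and 0.366 to 0.693 (genotype, LPS). Replicates 1 and 2 also correlated with each other across groups (0.154 to 0.334), close to their own coefficients, while replicate 3 correlated negatively with both, so the pairing of 1 and 2 is not shown apart from replicate 3 standing out. As every same-number coefficient was over 0.1, the numbers were taken to pair the samples, and the replicate block is given beside results it changes. The labels do not say what a number stands for.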

Additional observations from a re-analysis of the deposited data

How the results depend on the processing

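The counts of members called changed with the replicate block, the tool and the libraries used. With LPS in CD18fl/fl BMDCs, 2 members were called, against 6 with the replicate block, 5 with unique reads and the block, 6 with the exon length offset and the block, 7 with DESeq2, 1 with library size scaling, 4 in a fit of all 12 libraries and 20 with replicates 1 and 2 alone. Leaving out 1 library gave 0 to 12. In CD18CD11c cKO BMDCs, 1 was called, against 10, 9 and 10 in the same 3 blocked fits, 3 with DESeq2, 0 with RLE size factors, 0 with library size scaling, 3 with all 12 libraries and 9 with replicates 1 and 2 alone, and 0 to 2 when 1 library was left out. Between genotypes without LPS, 0 became 9, 6 and 4 in the blocked fits, 5 with DESeq2 and 3 with replicates 1 and 2 alone. With LPS, 0 became 4, 3 and 4, and 1 with replicates 1 and 2 alone. Leaving out 1 library kept both at 0, and the interaction stayed at 0 in each alternative run. The causes were not tested. The share of member reads with several positions, 18.6%, was 16.4% in exon reads, 33.3% in the chromosome 2 and 4 clusters, 4.79% in the other members and 1.95% as the median member. Of 435 values for 25 pairs of a named member and a comparison under alternatives, 332 kept direction and side of the threshold, 86 passed only under the alternative, 17 were lost and 0 turned direction. These pairs hold up to 6 members per comparison and direction called on total reads without or with the block, and those whose call differed on unique reads. Of the 25 pairs, 21 passed with the block and not without it. Passes in the blocked fits and kept directions thus follow in part from how the pairs were chosen, and give no independent support. A missing adjusted p, as DESeq2 gave for part of the members, was counted as not passing. Among all members tested on both kinds of reads, unique reads turned the direction for 3 between unstimulated genotypes (4 with the block), Zfp973 included (0.08 against -0.57), and for at most 2 in the other comparisons. Members with few or no unique reads could not be tested apart from their copies.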
